A study of Homo sapiens with 4 samples.

Results

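The 50 genes described here encode the chaperones of the cytosol and of mitochondria, the co-chaperones that work with them, and a pair of heat shock factors. They were taken by gene symbol from a list drawn up with the fall of 1 member, FKBP4, in these data already known. All 50 symbols were found among the 18398 rows of the data, each row a RefSeq transcript with its gene. The study measured RNA in Huh1 and Huh7, established cell lines from human hepatocellular carcinoma, by RNA sequencing in bulk. In each line 1 library came from cells given NCsiRNA, a control siRNA designed against no human transcript, and 1 library from cells given CDCA8-1siRNA, an siRNA against CDCA8 (borealin, a subunit of the chromosomal passenger complex that acts in cell division). Both siRNAs were used at 15 nM for 48 h, a dose and time taken from its methods and legends and not from the labels. Only 1 of the study's siRNAs against CDCA8 was sequenced, so an effect of losing CDCA8 and an effect of that siRNA itself cannot be told apart. With 1 library per condition there was no spread between replicates, and no test was made within a line.

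Chaperones hold unfolded proteins and help them reach their folded state. HSP70 proteins bind short exposed stretches of a client protein together with J-domain proteins, which bring clients and start ATP hydrolysis, and nucleotide exchange factors such as the BAG and HSP110 proteins, which reset the cycle. HSP90 receives partly folded clients such as kinases and steroid receptors and is steered by co-chaperones, among them the immunophilins FKBP4 (FKBP52), FKBP5 (FKBP51) and PPID (cyclophilin 40). TRiC, a ring-shaped chaperonin of the cytosol, folds actin and tubulin, and HSPD1 (HSP60) with its lid HSPE1 (HSP10) does the like in the mitochondrial matrix. HSF1 is the main transcription factor that switches on these genes under heat or protein damage, by binding heat shock elements near their starts.

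Levels are given in RPKM, a count of reads divided by the transcript's length and by the library's depth, so that genes can be compared per length. The value that 1 read has in each library corresponded to a depth between 12197606 and 13384836 reads per library. CDCA8 stood at 24.1 RPKM in Huh1 with NCsiRNA and 5.86 with CDCA8-1siRNA, and at 51.5 and 7.36 in Huh7, so both libraries labelled CDCA8 siRNA held the lower level of their line. All 10 hepatocyte-lineage markers (ALB and APOA1 among them) were at 1 RPKM or above in all 4 libraries. Their summed level was 5225 RPKM in Huh1 with NCsiRNA and 4014 with CDCA8-1siRNA, and 3337 and 2344 in Huh7. ALB was the largest part, at 3447 RPKM in Huh1 and 1166 in Huh7 with NCsiRNA. Each marker was lower with CDCA8-1siRNA except AFP in Huh1 (24.8 to 27.5 RPKM) and TTR in Huh7 (29.3 to 48.5). Unlike the sum, AFP, FGB, FOXA2 and TTR were higher in Huh7 than in Huh1 under both siRNAs. Of 6 fibroblast markers, 1 in each Huh1 library and 4 in each Huh7 library reached 1 RPKM, with a sum of 12.1 and 25.9 RPKM in Huh1 and of 284 and 377 in Huh7. LUM stood at 12.0 and 25.6 RPKM in Huh1 and 143 and 190 in Huh7, COL1A1 at 0.115 and 0.122 in Huh1 and 107 and 125 in Huh7, COL1A2 at 0.0138 and 0.0280 in Huh1 and 31.4 and 56.9 in Huh7, and COL3A1 at 1.89 and 4.14 in Huh7 (NCsiRNA first, here and below). The fibroblast-defining DCN stood at 0 RPKM in both Huh1 libraries and at no more than 0.406 in Huh7, and PDGFRB at no more than 0.400 in any library. Leukocyte markers summed to at most 24.4 RPKM, nearly all of it LYZ, with PTPRC at no more than 0.417, and endothelial markers to at most 0.0247. These sums move with the siRNA as well, and their part in the chaperone values was not tested. In bulk RNA, fewer cells of a type and less RNA per cell cannot be told apart.

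The chaperone genes made up 1.78% of all RPKM in Huh1 with NCsiRNA, 1.69% in Huh1 with CDCA8-1siRNA, 1.8% in Huh7 with NCsiRNA and 1.62% in Huh7 with CDCA8-1siRNA. HSPA8, the constitutive cytosolic HSP70, was measured at 958 and 944 RPKM in Huh1 and 1109.9 and 1017 in Huh7. It was the highest of the 50 in every library but that of Huh1 with NCsiRNA, where HSPD1 stood at 963 RPKM. At the other end stood DNAJA4, at 0.0938 and 0.0238 RPKM in Huh1, values that rest on about 4.07 and 1.02 reads, against 5.25 and 5.73 RPKM in Huh7. It was the member that failed the minimum of 1 RPKM in Huh1, so 49 members entered the comparison there and 50 entered it in Huh7.

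**Figure D1:**
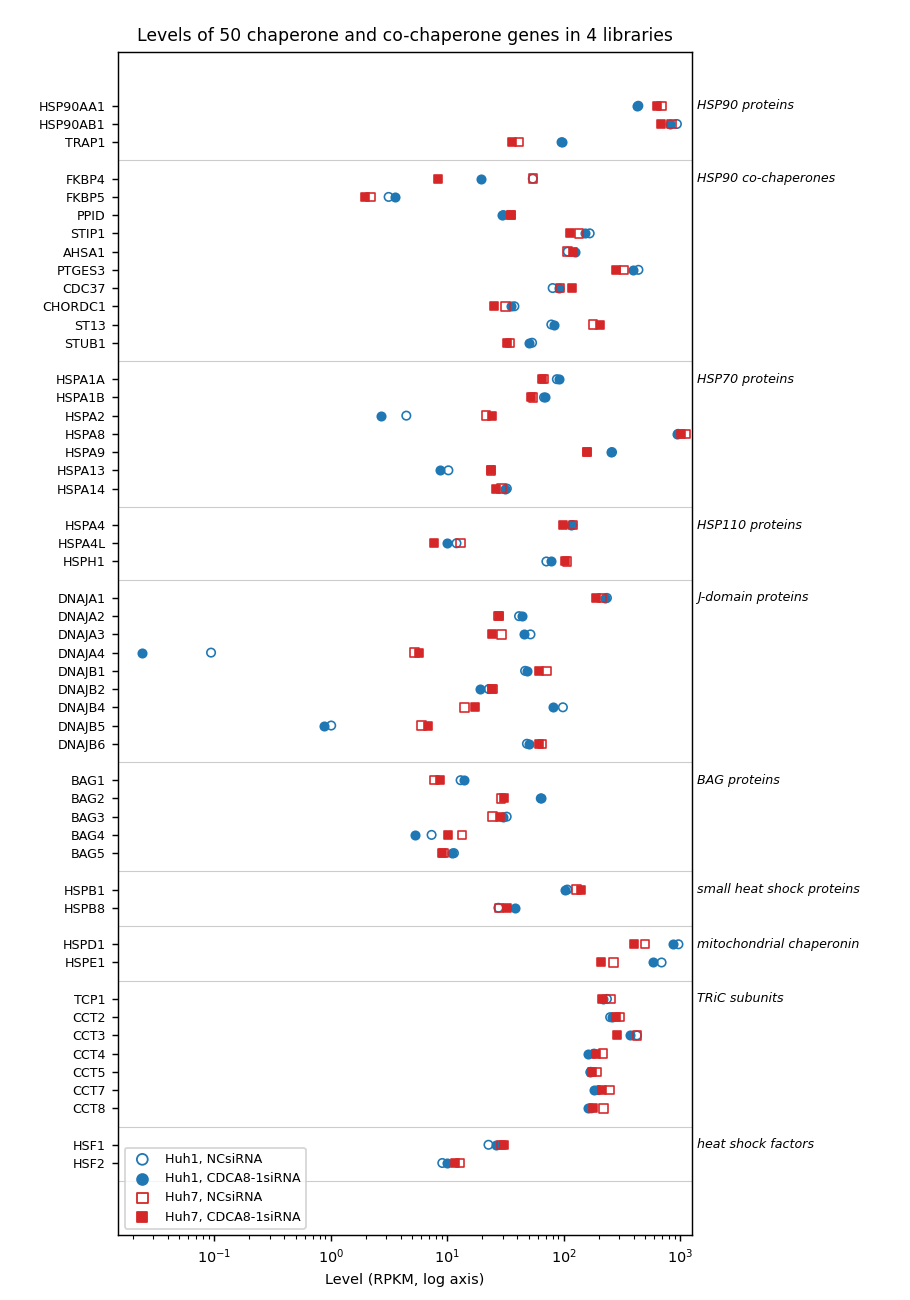
Level of each of the 50 genes in the 4 libraries (RPKM, log axis), 1 point per library, with genes ordered by group. Open symbols are NCsiRNA and filled symbols CDCA8-1siRNA, circles Huh1 and squares Huh7. The open and filled points of FKBP4 lie apart in both lines, while most other pairs nearly coincide and the lines differ more than the siRNAs for DNAJA4, DNAJB4, DNAJB5 and HSPA2.

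The first comparison asked which chaperone genes differ after CDCA8-1siRNA in each line. Fold changes are differences of log2(RPKM + 1), which understate the change of low genes. At 2-fold, FKBP4 was the 1 member of 49 that was lower in Huh1, where 0.174% of all genes were, and the 1 member of 50 that was lower in Huh7, where 0.700% were. The list was drawn up with this fall known, so a count that holds FKBP4 is no separate evidence about the members. At 1.5-fold it was again the 1 member lower in Huh1, beside 1.27% of all genes, and was joined in Huh7 by HSPA4L, beside 3.42%. At 1.25-fold, 3 members (BAG4, FKBP4 and HSPA2) were lower in Huh1, where 6.73% of all genes were, and 1 (HSPB8) was higher, where 11.0% of all genes were. In Huh7, 5 members (BAG4, CCT3, FKBP4, HSPA4L and HSPE1) were lower by 1.25-fold, where 11.3% of all genes were, and 1 (CDC37) was higher, where 17.0% of all genes were. The members' share past 1.25-fold was 6.12% in Huh1 for lower levels, close to that of all genes, and 2.04% for higher ones, under it.

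Apart from FKBP4 the changes were small, and more of them were downward than upward. The median log2 change of the members was -0.05 in Huh1, beside 0.02 over all genes tested, and -0.11 in Huh7, beside 0.03. The SD over all genes was 0.26 in Huh1 and 0.35 in Huh7. Of 49 members, 26 (53.1%) were lower in both lines, where 30.5% of all genes were, and 7 (14.3%) were higher in both, where 39.0% were. This split depends on the scaling of the libraries, since after quantile normalization 21 members (42.9%) were lower in both, beside 35.5% of all genes, and 9 (18.4%) were higher in both, beside 33.6%. The 7 were AHSA1, BAG1, CDC37, DNAJA2, HSF1, HSPB8 and ST13. The other 16 members had opposite signs in the 2 lines, about as large a share as among all genes in the values as reported.

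To use the lines together, limma was fitted to 10357 genes in all 4 libraries, with a term for the line. It tests the mean change over the 2 lines, with their disagreement as the residual (1 degree of freedom). It holds no spread between cultures, and a call does not mean that both lines moved alike. By this test, at an adjusted p-value under 0.05, 4 of 49 members (8.16%) fell, FKBP4, HSPE1, CCT3 and HSP90AB1, where 4.21% of all genes did. No member rose (0 of 49), where 6.03% of all genes did. Before adjustment, 13 members (26.5%) had a p-value under 0.05 with a lower level, beside 10.5% of all genes, and 2 (4.08%) with a higher one, beside 15.5%. FKBP4, whose fall was known when the list was drawn up, is among the 4 and the 13 and adds to both shares. Across the 49 members, the changes in the 2 lines had a Pearson correlation of 0.78 and a Spearman correlation of 0.48, a description only, as genes share their libraries. Without FKBP4 the Pearson correlation was 0.39, so the higher value rests on this gene. Across all 10357 genes it was 0.60.

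**Figure D2:**
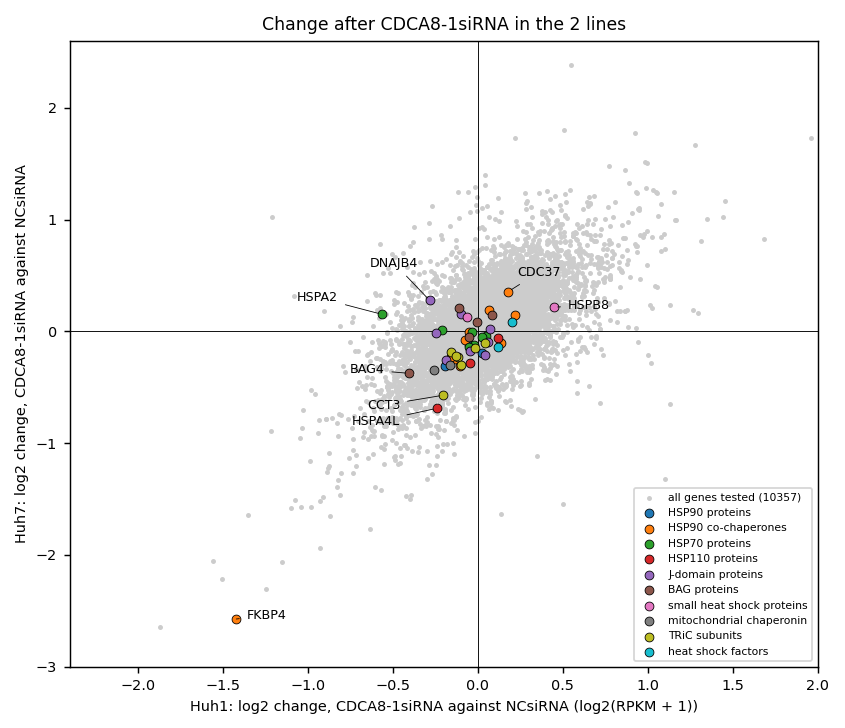
Log2 change after CDCA8-1siRNA in Huh1 (horizontal) and Huh7 (vertical), in log2(RPKM + 1), for all 10357 genes tested in grey and 49 members coloured by group, 1 point per gene. FKBP4 lies at the edge of the grey cloud at the lower left, and the other members lie within it.

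FKBP4 is an immunophilin that works with HSP90 on steroid receptors, the glucocorticoid receptor among them. It stood at 54.2 RPKM in Huh1 with NCsiRNA and 19.6 with CDCA8-1siRNA, and at 54.5 RPKM in Huh7 with NCsiRNA and 8.32 with CDCA8-1siRNA. The control libraries of the lines were thus nearly equal, and both CDCA8-1siRNA libraries lay below both controls, at 36.2% of control in Huh1 and 15.3% in Huh7. About 2706 and 966 reads lay behind the values in Huh1 and 2483 and 381 behind those in Huh7. The log2 change was -1.42 in Huh1 (SD from read sampling 0.052) and -2.57 in Huh7 (0.072), where the SD covers counting error only. Among all genes it was the 4th lowest change of 10940 in Huh1 and the 2nd lowest of 11565 in Huh7, CDCA8 itself being the 1st in both. The ranks hold for log2(RPKM + 1), which understates low genes, and were not repeated with another pseudocount. At least 2-fold lower were 19 genes in Huh1 and 81 in Huh7, against 57 and 153 with a pseudocount of 0.1 RPKM. In limma the change over both lines was -2.00 (SE 0.21, adjusted p = 0.0013). That call is lost without the filter on low values (adjusted p = 0.445), where limma called 0 of 18398 genes, and without the cell line covariate, where it also called 0. As the set was drawn up with the fall of FKBP4 known, its rank and p-value describe that fall and are no separate evidence.

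The gene of FKBP4 is on chromosome 12 (chr12:2794953-2805423, plus strand, GENCODE 29 on GRCh38), and its transcript has 10 exons and 3732 bases. Antisense genes overlap it, AC005841.1 over 7.6% of the transcript and ITFG2-AS1 over 5.0%. The library kit does not keep strand, so reads of those genes cannot be told apart from its own. FKBP5, the related immunophilin that glucocorticoids induce, was measured at 3.14 and 3.54 RPKM in Huh1 and at 2.20 and 1.97 in Huh7, with log2 changes of 0.14 (sampling SD 0.087) and -0.10 (0.10). FKBP4 was therefore 17.3 times as abundant as FKBP5 per length in Huh1 with NCsiRNA and 5.53 times with CDCA8-1siRNA, and in Huh7 this ratio went from 24.8 to 4.22. PPID, the cyclophilin among the HSP90 immunophilins, stayed within its sampling error, at 30.4 and 29.3 RPKM in Huh1 and 35.3 and 35.1 in Huh7. Per length there was 0.561 PPID for each FKBP4 in Huh1 with NCsiRNA and 1.49 with CDCA8-1siRNA, against 0.647 and 4.22 in Huh7.

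HSP90 itself was high in all libraries. HSP90AB1, the constitutive cytosolic form, was measured at 935 and 818 RPKM in Huh1 and 843 and 679 in Huh7. The CDCA8-1siRNA library was the lower one in each line, at 87.5% and 80.5% of control, and the 2 lines overlap, since 818 RPKM in treated Huh1 is below 843 in control Huh7. The log2 changes were -0.19 (sampling SD 0.012) and -0.31 (0.013), and in limma HSP90AB1 fell by 0.25 on the log2 scale (SE 0.067, adjusted p = 0.0450). That call sits at the threshold and was lost with quantile normalization (adjusted p = 0.152) and with scaling to the upper quartile (0.0549). HSP90AA1, the stress-inducible form, was measured at 436 and 421 RPKM in Huh1 and 691 and 636 in Huh7, and its change did not pass (limma adjusted p = 0.475). The 2 lines differ in the balance of these forms, with 2.14 HSP90AB1 per HSP90AA1 in Huh1 with NCsiRNA and 1.22 in Huh7, and 1.94 and 1.07 with CDCA8-1siRNA. TRAP1, the mitochondrial HSP90, was measured at 95.7 and 97.3 RPKM in Huh1 and at 41.1 and 35.8 in Huh7 (limma adjusted p = 0.606). Of its transcript, 37.7% overlaps DNASE1 on the other strand.

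The starts of HSP90AA1 and HSP90AB1 are shown because both carry heat shock elements, the sites of HSF1. Windows run from 250 bases before to 50 bases after a gene's start and come from RefSeq on GRCh38.p14. Capitals mark each match to GAANNTTCNNGAA, 3 alternating units of a heat shock element, searched on both strands. HSP90AA1 has 1 match 88 bases before its start (window chr14:102086995-102087294, minus strand). HSP90AB1 has 2, 165 and 112 bases before its start (window chr6:44247693-44247992, plus strand).
HSP90AA1: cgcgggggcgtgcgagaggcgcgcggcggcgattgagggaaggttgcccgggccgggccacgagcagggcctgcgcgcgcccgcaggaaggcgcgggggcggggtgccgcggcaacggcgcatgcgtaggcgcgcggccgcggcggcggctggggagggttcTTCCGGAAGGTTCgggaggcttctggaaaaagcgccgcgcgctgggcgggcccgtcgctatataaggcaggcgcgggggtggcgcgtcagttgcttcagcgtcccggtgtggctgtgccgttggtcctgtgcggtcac
HSP90AB1: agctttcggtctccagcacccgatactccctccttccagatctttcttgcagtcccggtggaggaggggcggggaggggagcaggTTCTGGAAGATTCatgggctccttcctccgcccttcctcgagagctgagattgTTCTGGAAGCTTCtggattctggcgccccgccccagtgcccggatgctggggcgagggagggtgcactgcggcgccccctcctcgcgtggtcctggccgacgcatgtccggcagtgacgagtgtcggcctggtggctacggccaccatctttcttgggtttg

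The other co-chaperones had changes between -0.31 and 0.36 on the log2 scale, in both directions. STIP1 (HOP), which bridges HSP70 and HSP90, was measured at 167 and 152 RPKM in Huh1 and 135 and 114 in Huh7 (limma adjusted p = 0.168). PTGES3 (p23), which holds the closed form of HSP90, was measured at 437 and 391 RPKM in Huh1 and 328 and 279 in Huh7 (limma adjusted p = 0.118). Both were lower with CDCA8-1siRNA in each line by about the proportion of HSP90 itself. The sum of HSP90AA1 and HSP90AB1 per PTGES3 was 3.14 and 3.17 in Huh1 and 4.68 and 4.71 in Huh7, and per STIP1 it was 8.22 and 8.17 in Huh1 and 11.4 and 11.6 in Huh7. The same sum per FKBP4 was 25.3 and 63.2 in Huh1, and 28.1 and 158 in Huh7. CHORDC1, a co-chaperone that binds the HSP90 ATPase domain, was measured at 37.7 and 34.9 RPKM in Huh1 and 31.6 and 25.4 in Huh7 (limma adjusted p = 0.223).

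AHSA1, the activator of the HSP90 ATPase, was measured at 108 and 126 RPKM in Huh1 and 108 and 119.5 in Huh7. CDC37, which brings kinases to HSP90, was measured at 80.3 and 91.0 RPKM in Huh1 and 92.5 and 119 in Huh7. Both were higher with CDCA8-1siRNA in each line, by more than 1.96 sampling SDs, and neither passed limma (adjusted p = 0.194 and 0.0845). ST13 (HIP), an HSP70 partner, was measured at 78.2 and 81.7 RPKM in Huh1 and at 178 and 203 in Huh7, so that the libraries of the 2 lines did not overlap. STUB1 (CHIP), the ubiquitin ligase that marks chaperone clients for degradation, was measured at 53.4 and 50.7 RPKM in Huh1 and 34.4 and 32.6 in Huh7. Its values include any reads of JMJD8, which overlaps 47.4% of the transcript on the other strand, and 26.9% of PPID likewise overlaps ETFDH.

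**Figure D3:**
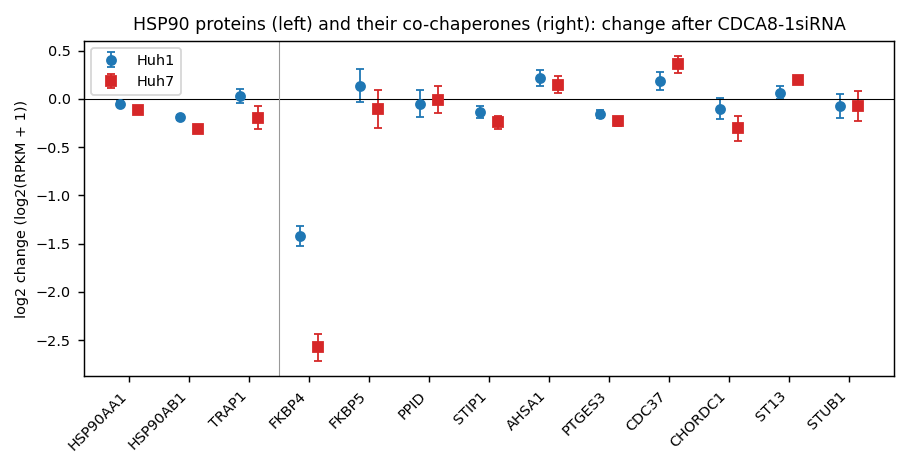
Log2 change after CDCA8-1siRNA (log2(RPKM + 1)) of the 3 HSP90 proteins and 10 HSP90 co-chaperones in Huh1 (circles) and Huh7 (squares). Bars are 1.96 SDs of read sampling and hold no variation between cultures. FKBP4, at -1.42 and -2.57, stands apart from the other 12 genes, which lie between -0.31 and 0.36.

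Of 7 HSP70 genes, 3 were lower in both lines, 4 had opposite signs and none passed limma (no unadjusted p was under 0.05). Their summed level was 98.6% of control in Huh1 and 93.3% in Huh7. HSPA8 had log2 changes of -0.02 in Huh1 and -0.13 in Huh7, and the first turned to 0.09 with quantile normalization. HSPA1A and HSPA1B, the strongly heat-induced pair, are near-identical copies that share reads, and their sum was 155 and 159 RPKM in Huh1 and 122 and 118 in Huh7. HSPA1A alone was measured at 87.2 and 90.3 RPKM in Huh1 and 67.5 and 65.5 in Huh7. There was 6.18 times as much HSPA8 as this sum in Huh1 with NCsiRNA and 5.94 times with CDCA8-1siRNA, and 9.10 and 8.62 times in Huh7. HSPA2, an HSP70 best known from the testis, was measured at 4.45 and 2.69 RPKM in Huh1 and 21.6 and 24.1 in Huh7, with a log2 change of -0.56 (sampling SD 0.14) in Huh1 and 0.15 (0.070) in Huh7. HSPA9 (mortalin, of mitochondria), HSPA13 and HSPA14 had log2 changes between -0.21 and 0.01 over both lines. The changes of HSPA9, -0.03 for Huh1 and -0.0081 for Huh7, turned to 0.02 and 0.04 with quantile normalization, so that of the 3 genes lower in both lines HSPA14 alone stayed so, while HSPA13 (-0.24 and -0.01) joined it.

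The HSP110 proteins exchange the nucleotide of HSP70. HSPA4L (APG1) was measured at 12.0 and 9.99 RPKM in Huh1 and 12.9 and 7.64 in Huh7, at 83.3% and 59.1% of control. The log2 change was -0.24 (sampling SD 0.047) in Huh1 and -0.69 (0.052) in Huh7, next to FKBP4 the lowest of the members in Huh7. It missed the threshold in limma (-0.47, SE 0.13, adjusted p = 0.0515) and passed it with quantile normalization (0.00434) and with a minimum of 5 RPKM (0.0373). HSPA4 (APG2) was measured at 118 and 115 RPKM in Huh1 and 119.6 and 98.3 in Huh7. HSPH1 (HSP105), the heat-induced member, was measured at 70.9 and 77.0 RPKM in Huh1 and 107 and 102 in Huh7.

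Of 9 J-domain genes, 8 were tested, and none passed limma, with DNAJA3 under 0.05 before adjustment. DNAJA1, the most abundant, was measured at 234 and 227 RPKM in Huh1 and 213 and 189 in Huh7. DNAJA3 (TID1, of mitochondria) had the lowest mean change of the group, at 51.7 and 45.4 RPKM in Huh1 and 29.2 and 24.2 in Huh7 (limma adjusted p = 0.160). DNAJA2 had the highest, at 41.3 and 43.4 RPKM in Huh1 and 27.6 and 27.9 in Huh7, with both changes within 1.96 sampling SDs. DNAJB1 (HSP40), the heat-induced partner of HSPA1A, was measured at 46.5 and 47.9 RPKM in Huh1 and 70.7 and 60.8 in Huh7. In Huh7 its log2 change was -0.21 (sampling SD 0.047), beside -0.04 (0.045) for HSPA1A. DNAJB2, DNAJB5 and DNAJB6 had log2 changes between -0.25 and 0.15 over both lines, and DNAJB4 is described with the lines below.

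Among 5 BAG genes, BAG4 (SODD), which also binds TNF receptor tails, was lower in both lines by a like amount. It was measured at 7.33 and 5.30 RPKM in Huh1 and 13.4 and 10.1 in Huh7, at 72.3% and 75.3% of control (limma -0.39, SE 0.11, adjusted p = 0.0533). It passed with quantile normalization (0.0173) and with a minimum of 5 RPKM (0.0371). BAG2, which inhibits STUB1, was the most abundant, at 63.5 and 63.2 RPKM in Huh1 and 28.8 and 30.6 in Huh7, with RAB23 overlapping 42.7% of its transcript on the other strand. BAG1 was measured at 13.0 and 13.8 RPKM in Huh1 and 7.73 and 8.65 in Huh7, the highest mean change of the group and within its sampling error. BAG3, the partner of HSPB8 in selective autophagy, had log2 changes of -0.11 (sampling SD 0.061) and 0.20 (0.068). BAG5 was at 96.2% of control in Huh1 and 96.1% in Huh7.

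HSPB8, a small heat shock protein that works with BAG3, had the highest log2 change of the members in Huh1. It was measured at 27.5 and 37.9 RPKM in Huh1 and 27.7 and 32.4 in Huh7. Both CDCA8-1siRNA libraries lay above both controls, with log2 changes of 0.45 (sampling SD 0.066) and 0.22 (0.070). In limma the change was 0.33 (SE 0.10, adjusted p = 0.0677), and it passed with quantile normalization (0.0350). HSPB1 (HSP27) was measured at 107 and 103 RPKM in Huh1 and 129 and 141 in Huh7. HSF1 was measured at 22.6 and 26.1 RPKM in Huh1 and 28.9 and 30.7 in Huh7 (limma adjusted p = 0.394). HSF2, a related factor, was measured at 9.06 and 9.92 RPKM in Huh1 and 12.8 and 11.5 in Huh7.

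The mitochondrial chaperonin was lower in both lines. HSPE1 was measured at 691 and 578 RPKM in Huh1 and 268 and 211 in Huh7, and HSPD1 at 963 and 859 RPKM in Huh1 and 496 and 401 in Huh7. All 4 Huh1 values of these genes lay above the Huh7 values of the same gene, and within each line the CDCA8-1siRNA library was the lower one. By limma HSPE1 fell by 0.30 on the log2 scale (SE 0.071, adjusted p = 0.0301), and HSPD1, with a change of -0.24 (SE 0.070), missed the threshold (adjusted p = 0.0638). The log2 changes of HSPD1, -0.17 for Huh1 and -0.30 for Huh7, became -0.04 and -0.23 with quantile normalization. There was 1.40 HSPD1 per HSPE1 in Huh1 with NCsiRNA and 1.49 with CDCA8-1siRNA, against 1.85 and 1.90 in Huh7. The call of HSPE1 is lost without the mean-variance trend (adjusted p = 0.119). Of its transcript 29.6% overlaps HSPD1 on the other strand and 20.2% overlaps HSPE1-MOB4 on the same strand, so reads may be shared.

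These 2 genes lie head to head on chromosome 2, and their shared promoter is shown because both were lower in the same libraries. In RefSeq on GRCh38.p14 HSPD1 starts at position 197500274 on the minus strand and HSPE1 at 197500379 on the plus strand. The window of HSPE1 (chr2:197500129-197500428, plus strand) holds both starts, and capitals mark the 104 bases between them.
HSPE1: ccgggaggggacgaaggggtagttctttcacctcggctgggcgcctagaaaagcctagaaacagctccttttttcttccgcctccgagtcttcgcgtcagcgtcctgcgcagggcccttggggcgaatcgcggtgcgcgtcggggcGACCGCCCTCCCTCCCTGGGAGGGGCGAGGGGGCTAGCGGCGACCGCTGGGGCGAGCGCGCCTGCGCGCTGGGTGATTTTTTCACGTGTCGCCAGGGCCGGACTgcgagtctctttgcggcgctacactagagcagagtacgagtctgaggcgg
GAANNTTCNNGAA has no match in this window, which says only that these letters are not in it.

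TRiC is built from different subunits around a ring, and 7 of them were among the members. The subunit gene CCT6A was not a member and was counted with the chaperonin partner genes below. Of the 7, 6 were lower in both lines, where 30.5% of all genes were, and CCT2 had opposite signs. The Huh1 change of CCT5 turned from -0.02 to 0.01 with quantile normalization. CCT3 was the most abundant and had the lowest mean change, at 424 and 368 RPKM in Huh1 and 427 and 287 in Huh7. Its control libraries were nearly equal between the lines and both treated libraries lay below them, at 86.9% and 67.2% of control. By limma CCT3 fell by 0.39 on the log2 scale (SE 0.092, adjusted p = 0.0314), a call that is lost without the mean-variance trend (adjusted p = 0.102). CCT2, with the highest mean change, was measured at 250.0 and 257 RPKM in Huh1 and 302 and 280 in Huh7. TCP1, CCT4, CCT5, CCT7 and CCT8 had log2 changes between -0.16 and -0.02 in Huh1 and between -0.30 and -0.15 in Huh7, with adjusted p-values in limma from 0.162 to 0.566. There was 2.50 CCT3 per CCT5 in Huh1 with NCsiRNA and 2.20 with CDCA8-1siRNA, against 2.23 and 1.66 in Huh7. The summed level of the 7 subunits was 92.9% of control in Huh1 and 82.7% in Huh7. CCT5 overlaps the antisense gene AC012640.4 over 47.8% of its transcript, and TCP1 overlaps ACAT2 over 15.9%.

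**Figure D4:**
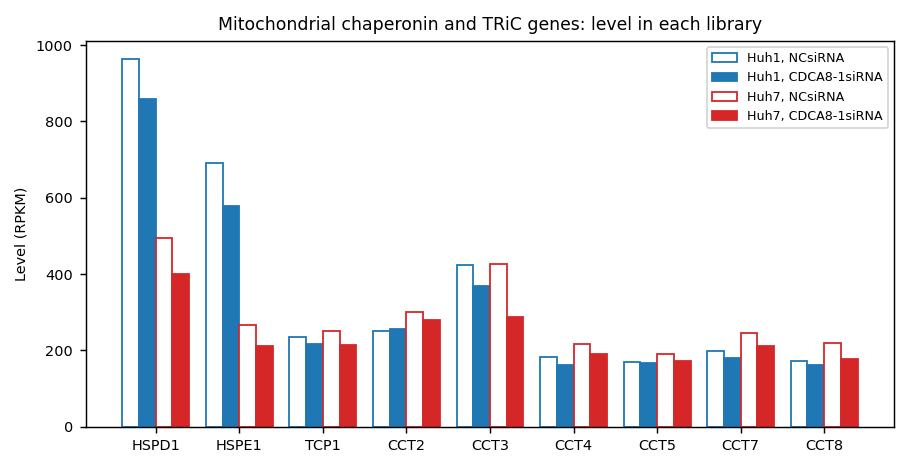
Level (RPKM, axis from 0) of the 2 mitochondrial chaperonin genes and 7 TRiC genes, 1 bar per library, open for NCsiRNA and filled for CDCA8-1siRNA, blue for Huh1 and red for Huh7. HSPD1 and HSPE1 are higher in Huh1 under either siRNA, and for CCT3 the control bars are level at 424 and 427 RPKM while the treated ones are 368 and 287.

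Heat shock element letters were searched in the windows of all members with one in RefSeq. Windows were found for 44 of 50 members and not for BAG4, FKBP4, HSF1, HSPA14, ST13 and STUB1. Of the 62 windows of these 44 genes 7 (11.3%) held GAANNTTCNNGAA, and 171 of all 34943 windows (0.489%) did. Besides HSP90AA1 and HSP90AB1, shown above, the genes were CHORDC1, DNAJA1, DNAJB6, HSPA8 and HSPD1. Their matches are shown with the bases around them, so that the repeated units and their spacing can be read side by side, and capitals mark the match. CHORDC1 holds 3 overlapping matches in 23 bases from 60 before its start, DNAJA1 1 match from 3 bases after it, DNAJB6 1 from 131 before it, HSPA8 2 and HSPD1 2 overlapping ones in 18 bases from 245 before an alternative start. The stretches are, in GRCh38.p14, CHORDC1 chr11:90223077-90223119, DNAJA1 chr9:33025266-33025298, DNAJB6 chr7:157336863-157336895, HSPA8 chr11:123062344-123062376, HSPA8 chr11:123062169-123062201, HSPD1 chr2:197500058-197500090, with DNAJA1 and DNAJB6 on the plus strand and the others on the minus strand.
CHORDC1: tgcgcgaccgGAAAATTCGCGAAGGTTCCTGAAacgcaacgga
DNAJA1: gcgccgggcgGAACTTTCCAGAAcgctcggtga
DNAJB6: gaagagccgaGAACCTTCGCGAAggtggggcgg
HSPA8 (230 before): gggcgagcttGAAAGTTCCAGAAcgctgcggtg
HSPA8 (55 before): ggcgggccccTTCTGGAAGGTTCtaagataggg
HSPD1: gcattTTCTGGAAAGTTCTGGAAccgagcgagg
All 7 genes had a lower level with CDCA8-1siRNA in Huh7, between -0.31 and -0.09 on the log2 scale, and 6 of 7 in Huh1. The exception was DNAJB6, at 48.2 and 50.3 RPKM. The median log2 change of the 7 was -0.05 in Huh1 and -0.17 in Huh7, against -0.05 in Huh1 and -0.05 in Huh7 for the other 37 members with a window. Of those 37, 24 were lower in Huh1 and 24 in Huh7. The 37 include HSPA1A, HSPA1B, DNAJB1 and HSPH1, described above as heat-induced, and HSPE1. The search took exact matches within these windows only, so the 37 are not genes known to lack heat shock elements. Over all members tested, 33 of 49 were lower in Huh1 and 35 of 50 in Huh7. The median change over all genes tested was 0.02 in Huh1 and 0.03 in Huh7. Whether a match goes with a change in level was not tested. In Huh1 the changes of HSP90AA1, HSPA8 and DNAJA1 turned to 0 or above with quantile normalization. A match is a description of the letters, not a bound site.

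The second comparison set the 2 lines side by side under each siRNA. With NCsiRNA, 5 of 50 members were at least 2-fold higher in Huh7 (beside 17.0% of all genes) and 4 were at least 2-fold lower (beside 10.2%). With CDCA8-1siRNA, in the libraries the first did not use, 5 of 50 were higher (beside 17.4%) and 6 of 50 were lower (beside 10.1%). The same 5 were higher under both siRNAs, DNAJA4, DNAJB5, HSPA13, HSPA2 and ST13. The 4 lower with NCsiRNA, BAG2, DNAJB4, HSPE1 and TRAP1, were lower with CDCA8-1siRNA as well, where HSPD1 and FKBP4 were added. The differences under both siRNAs had a Pearson correlation of 0.96 across the 50 members, as a description. Scaling matters more here. With NCsiRNA, quantile normalization moved the median difference of all genes from 0.14 to -0.00057 and the genes called from 2028 higher and 1211 lower to 1644 and 1504, while the members called were the same 5 and 4. With CDCA8-1siRNA, 5 members were then higher and 5 lower, HSPD1 being the one lost. The members called between the lines are named because they passed 2-fold, which was seen in their values first.

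DNAJB4, a cytosolic J-domain protein, had the largest difference downward, at 98.2 and 80.5 RPKM in Huh1 against 14.0 and 17.2 in Huh7. In log2 terms the difference was -2.73 with NCsiRNA and -2.17 with CDCA8-1siRNA. DNAJA4 had the largest upward difference with NCsiRNA, at 2.51 on the log2(RPKM + 1) scale, beside 2.72 with CDCA8-1siRNA. With a pseudocount of 0.1 RPKM these became 4.79 and 5.56, as few reads lay behind DNAJA4 in Huh1 (about 4.07 and 1.02), and the gene reached 1 RPKM in Huh7 alone. HSPA2 had a difference of 2.05 with NCsiRNA and 2.77 with CDCA8-1siRNA. DNAJB5 was measured at 1.01 and 0.872 RPKM in Huh1 and 6.02 and 6.80 in Huh7. HSPA13, a microsome-associated HSP70, was measured at 10.2 and 8.69 RPKM in Huh1 and 23.7 and 23.9 in Huh7. FKBP4 differed between the lines by 0.01 with NCsiRNA and by -1.14 with CDCA8-1siRNA, nearly level in the controls and past 2-fold in the treated libraries. HSPD1 crossed it from close by, at -0.96 and -1.10. HSPA9 and TRAP1, mitochondrial like HSPD1 and HSPE1, were also lower in Huh7 under both siRNAs, HSPA9 at 259 and 253 RPKM in Huh1 against 159 and 158 in Huh7.

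**Figure D5:**
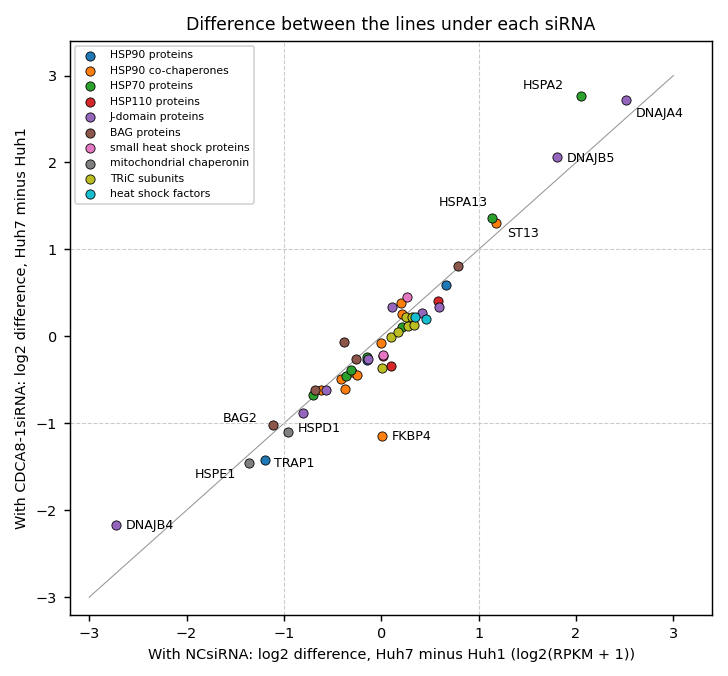
Log2 difference of each of the 50 members between the lines, Huh7 minus Huh1 (log2(RPKM + 1)), with NCsiRNA (horizontal) and with CDCA8-1siRNA (vertical), 1 point per gene. The solid line marks equality and dashed lines mark 2-fold. Most points follow the line, and FKBP4, at 0.01 and -1.14, lies farthest below it.

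The rest of the pathway was read from lists of other genes. Their counts stand beside 4.21% of all genes that fell and 6.03% that rose by limma, and beside 10.5% lower and 15.5% higher at an unadjusted p-value under 0.05, and are to be read against these shares. Of 24 other immunophilins tested, 3 fell and 1 rose by limma, with 4 lower (16.7%) and 4 higher (16.7%) at an unadjusted p-value under 0.05, the latter close to all genes. FKBP1A (FKBP12), the target of tacrolimus, was measured at 118 and 89.4 RPKM in Huh1 and 152 and 54.1 in Huh7 (limma adjusted p = 0.020, and 0.055 without the mean-variance trend). On the log2(RPKM + 1) scale its change was -0.39 in Huh1 and -1.47 in Huh7. The latter was the 1 change in these lists past 2-fold, and 0.700% of all genes were at least 2-fold lower in Huh7. PPIL1, a cyclophilin of the spliceosome, was measured at 33.0 and 24.4 RPKM in Huh1 and 38.8 and 23.6 in Huh7 (limma adjusted p = 0.013). PPIF, the cyclophilin of mitochondria, also fell, at 139.9 and 110.3 RPKM in Huh1 and 60.4 and 43.2 in Huh7 (limma adjusted p = 0.020, and 0.060 without the trend), and is named beyond the rule as the third that did. FKBP14, of the endoplasmic reticulum, rose, at 11.8 and 14.2 RPKM in Huh1 and 8.81 and 15.3 in Huh7 (limma adjusted p = 0.047, and 0.062 with scaling to the upper quartile). Of 24 other HSP90 co-chaperones tested, CDC37L1, a relative of CDC37, fell, 1 gene in 24 and thus near the share of all genes, and none rose (2 lower and 3 higher before adjustment). It was measured at 7.84 and 4.02 RPKM in Huh1 and 8.55 and 4.71 in Huh7 (limma adjusted p = 0.006), while CDC37 itself was above control in both lines. Of 15 prefoldin and chaperonin partner genes, TBCA, which takes up β-tubulin after TRiC, fell and none rose (3 lower and 1 higher before adjustment), at 151 and 96.0 RPKM in Huh1 and 182 and 92.9 in Huh7 (limma adjusted p = 0.002).

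The same shares of all genes apply to the lists that follow. Of 29 other J-domain genes tested, DNAJC4 fell, at 4.36 and 2.09 RPKM in Huh1 and 4.72 and 3.62 in Huh7 (limma adjusted p = 0.048, and 0.062 with scaling to the upper quartile), and none rose (2 lower and 1 higher before adjustment). Of 15 genes of mitochondrial protein quality control, TIMM44, which tethers HSPA9 to the import channel, fell, at 27.0 and 20.4 RPKM in Huh1 and 26.5 and 17.4 in Huh7 (limma adjusted p = 0.020), and none rose (3 lower and 3 higher before adjustment, 20.0% of the list each). Of 6 genes for nucleotide exchange and other HSP70 partners, none passed limma in either direction, with 1 lower at an unadjusted p-value under 0.05. Likewise 0 of 6 other heat-inducible genes passed, and 0 had an unadjusted p-value under 0.05. Of the receptors that HSP90 serves, 2 were tested and 0 passed limma, with 1 higher before adjustment. They were NR3C1, the glucocorticoid receptor, at 21.5 and 26.1 RPKM in Huh1 and 14.6 and 18.3 in Huh7 (limma adjusted p = 0.101), and AHR, the aryl hydrocarbon receptor, at 27.1 and 29.8 RPKM in Huh1 and 33.2 and 35.1 in Huh7 (0.529), both named after their values were seen. Of 8 glucocorticoid-induced genes, TSC22D3 (GILZ) rose, at 0.880 and 1.79 RPKM in Huh1 and 12.6 and 17.7 in Huh7 (limma adjusted p = 0.030), and none fell, with 2 lower and 2 higher before adjustment.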

How the data were processed

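The 4 RNA-seq libraries, 1 for each line and siRNA, were prepared with the Illumina TruSeq RNA kit. The authors deposited RPKM values, 1 per RefSeq transcript and library, with no header. The unit was worked out from the values, and only 23.2% to 26.1% of values up to 20 reads came out whole (tolerance 0.02) with the transcript lengths used here, so numbers of reads are approximate. The submitters' processing notes name CASAVA 1.8.2, TopHat2 2.0.9 and hg19. The counting tool, annotation, filters and use of strand are not given in the sources used here. The files hold no coordinates, and positions and lengths came from GENCODE 29 on GRCh38 (17768 rows matched by RefSeq identifier, all 50 members among them) and promoter windows from RefSeq on GRCh38.p14.

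Libraries were grouped by the cell line and siRNA in their labels, and the siRNA variant, dose and time came from the study's methods and legends. No library was left out. The members and gene lists were chosen with earlier results of these data known, the fall of FKBP4 among them. Changes are differences of log2(RPKM + 1), for genes that reached 1 RPKM in either library of the pair. With 1 library per condition they have no test. A gene was called at 2-fold, the threshold of the study, and 1.5-fold and 1.25-fold counts were added, the last after seeing the data. The test of the study could not be repeated with 1 library per condition, and limma 3.58.1 in R 4.3.3 (lmFit, eBayes with trend, cell line as covariate, Benjamini-Hochberg over 10357 genes, prior degrees of freedom 8.29) took its place. The script was tested on simulated data, which hold no spread between cultures of these lines. The sampling SD of a log2 change comes from the approximate reads, covers counting error only and is the only measure of precision within a line. Named were all HSP90 proteins and co-chaperones, each member called at 2-fold or by limma, the highest in level and the lowest and highest in mean change of every other group, small groups whole, and up to 3 called genes of each other list. Where these lists hold a gene that overlaps or resembles another, the values may include its reads. Results on the members, and the limma calls of named genes of the other lists, were repeated with quantile normalization, upper-quartile scaling, a smaller pseudocount (0.1 RPKM), a higher minimum (5 RPKM) or none, and limma without covariate or trend. Ratios without a pseudocount and counts of members of one sign in both lines were added after seeing the data. The remaining steps ran in Python 3.11.15 (numpy 2.4.6, pandas 2.3.3), with figures by matplotlib 3.10.9.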

Additional observations from a re-analysis of the deposited data

Results flagged for a closer look

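The changes of 16 members had opposite signs in Huh1 and Huh7, each with 1 library per condition, and these differences between the lines were not tested. Among all genes 30.5% were lower in both lines and 39.0% higher in both, so opposite signs were about as common there as among the members. In 3 of them both changes were beyond 1.96 sampling SDs. HSPA2 had -0.56 in Huh1 and 0.15 in Huh7, a log2 difference of 0.71 (Huh7 minus Huh1, here and below). DNAJB4 had -0.28 and 0.28, a difference of 0.56, and was the member that most favoured Huh1 over Huh7 with NCsiRNA. HSPH1 had 0.12 and -0.06, a difference of -0.18.

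In the other 13 at least 1 of the changes was within the sampling of reads. Among HSP90 genes and their co-chaperones the difference was -0.22 for TRAP1 and -0.24 for FKBP5. Among HSP70 genes it was -0.091 for HSPA1A, -0.076 for HSPA1B and 0.22 for HSPA13. Among J-domain genes it was -0.26 for DNAJB1, 0.25 for DNAJB5 and -0.15 for DNAJB6. It was 0.088 for BAG2, 0.31 for BAG3, 0.19 for HSPB1, -0.15 for CCT2 and -0.26 for HSF2.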

How the results depend on the processing

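With 1 library per condition no library could be left out. The labels number no replicates, so replicate cultures could not be paired. The limma fit took the lines as pairs through its cell line term. At 2-fold FKBP4 was the member called in each line under every alternative run there, and counts of members called between the lines stayed within 9 to 11. limma is less stable. Its 4 members called became 0 without the filter on low values, 0 without the cell line covariate and 1 (FKBP4) without the mean-variance trend, and the cause was not tested. All 4 had an adjusted p-value of 1 without the covariate, and without the filter these were 0.445 for FKBP4 and HSPE1, 0.454 for HSP90AB1 and 0.484 for CCT3. Over the 6 alternatives that kept the covariate the adjusted p-value ran from 3.313e-11 to 0.445 for FKBP4, from 0.0226 to 0.445 for HSPE1, from 0.00366 to 0.484 for CCT3, from 0.0374 to 0.454 for HSP90AB1, from 0.0173 to 0.445 for BAG4, from 0.00434 to 0.487 for HSPA4L and from 0.0350 to 0.448 for HSPB8. Without the filter and without the covariate limma called 0 genes in all. Counts of 3 to 6 members were called under the 4 other alternatives. HSP90AB1 was also lost with quantile normalization, scaling to the upper quartile and no trend (0.181). Of the 340 limma values of members under alternatives, 13 lost and 5 gained a call. Of 1188 log2 changes 89 moved by more than the sampling of reads. The 1188 include 199 without the filter and 193 with a minimum of 5 RPKM, where the values stay as reported and could not move. With quantile normalization 52 moved and 147 did not. Of the 9 named genes of the other lists that passed limma, 9 passed with quantile normalization, 8 with the smaller pseudocount, all 7 that could be tested with a minimum of 5 RPKM, 7 with scaling to the upper quartile, 5 without the trend and 0 without the filter or the covariate. Members lower in both lines ranged from 21 to 26 and higher in both from 7 to 9. Depth limits the low genes, with about 4.07 and 1.02 reads behind DNAJA4 in Huh1.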
